A study of Mus musculus with 2 samples.

Results

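Ddt, Gstt3, Gstt1, Gstt2 and Mif are neighbours in 1 mouse gene cluster on chromosome 10, and this account follows their RNA across thymocyte stages. All 5 were found by symbol among the 31253 genes of the files. The set was selected on UMI levels of these same libraries, with the mutant over wild-type difference in regulatory T cells already known, so its values are given as a description. The question asked is whether neighbours on the chromosome change together. Droplet single-cell RNA-seq was run on thymocytes pulled down with beads against CD25, a receptor chain of regulatory T cells and of some DN cells, with 1 library from SETDBf/fCD4-Cre mice (cKO) and 1 from WT mice. In cKO mice Cre is driven by Cd4 regulatory sequence, which is active from the end of the double-negative (DN) stage on, so earlier DN cells serve as cells taken to precede the deletion. The sources used here do not give which SETDB gene is floxed, nor the age and number of mice behind each library. With 1 library per genotype there is no replicate check and no test, and every interval is a 95% interval for counting error only.

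Ddt and Mif encode D-dopachrome tautomerase and macrophage migration inhibitory factor, the paired members of a small family of secreted proteins that also carry a tautomerase fold. Both signal through the cell-surface receptor CD74. Gstt1, Gstt2 and Gstt3 encode theta-class glutathione transferases, which conjugate glutathione to electrophilic compounds. SETDB proteins belong to the histone H3K9 methyltransferase family, which is known for gene silencing.

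In the RefSeq gene table for GRCm38.p6 the order along the chromosome is Cabin1, Ddt, Gstt3, Gstt1, Gstt4, Gstt2, Mif, Derl3, Smarcb1, leaving out gene models. The sources used here name no genome build for the files, so the table served for gene order alone. The promoter sequences below are RefSeq sequences of GRCm38.p6, 250 bases before to 50 bases after a gene's start, and are shown because the question is whether genes with separate starts move together. They were at hand for 4 of the 5 members: Ddt (chr10:75773325-75773624), Gstt3 (chr10:75781373-75781672, the first of its starts), Gstt1 (chr10:75797682-75797981) and Mif (chr10:75860228-75860527), all on the minus strand and printed 5′ to 3′. Capitals mark matches on either strand to the E-box (CACGTG), the CCAAT box (CCAAT), the CRE palindrome (TGACGTCA) and the antioxidant response element (TGACNNNGC), none of which overlap here.
Ddt: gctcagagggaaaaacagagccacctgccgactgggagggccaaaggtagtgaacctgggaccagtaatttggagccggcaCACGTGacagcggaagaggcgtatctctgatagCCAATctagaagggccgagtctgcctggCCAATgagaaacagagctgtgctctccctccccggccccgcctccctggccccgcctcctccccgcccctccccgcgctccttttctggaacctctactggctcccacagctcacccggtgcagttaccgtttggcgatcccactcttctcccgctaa
Gstt3: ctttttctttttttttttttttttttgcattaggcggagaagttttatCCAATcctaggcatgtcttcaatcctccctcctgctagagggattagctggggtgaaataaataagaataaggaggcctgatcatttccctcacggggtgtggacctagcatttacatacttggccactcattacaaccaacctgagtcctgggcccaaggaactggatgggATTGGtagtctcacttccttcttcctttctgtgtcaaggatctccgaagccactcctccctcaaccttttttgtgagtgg
Gstt1: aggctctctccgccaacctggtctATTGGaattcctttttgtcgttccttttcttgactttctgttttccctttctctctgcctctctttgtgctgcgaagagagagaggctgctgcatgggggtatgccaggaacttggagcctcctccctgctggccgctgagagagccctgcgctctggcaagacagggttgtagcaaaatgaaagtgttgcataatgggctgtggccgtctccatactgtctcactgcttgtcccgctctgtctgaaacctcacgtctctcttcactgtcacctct
Mif: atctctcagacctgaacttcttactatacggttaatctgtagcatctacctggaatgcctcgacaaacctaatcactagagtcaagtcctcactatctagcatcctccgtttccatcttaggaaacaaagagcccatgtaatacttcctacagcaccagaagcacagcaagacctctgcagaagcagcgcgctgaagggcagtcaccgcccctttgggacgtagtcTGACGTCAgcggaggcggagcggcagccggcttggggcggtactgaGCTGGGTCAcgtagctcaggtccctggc
The Ddt promoter held 1 E-box, a motif found in 7.15% of all 32851 promoters in the table, and 2 CCAAT boxes (37.4% of promoters). CCAAT boxes were the only searched motif in the Gstt3 promoter, which had 2, and in the Gstt1 promoter, which had 1. The Mif promoter had no CCAAT box, and held 1 CRE palindrome (1.79%) and 1 match to the antioxidant response element (12.4%). CpG dinucleotides numbered 16 at Ddt and 14 at Mif, against 8 at Gstt1 and 3 at Gstt3, where the median over the table was 7. A match is a description of these letters and not evidence of binding.

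The 7372 cKO and 6989 WT cells that were kept had medians of 4653 and 7700 UMIs. Each cell was put into the first of a series of gates on raw UMIs that it passed, and levels are UMIs per 1000000 UMIs of the summed cells (UPM). The gates give early DN, DN3, cycling Cd8-low, cycling Cd8-positive, resting double-positive (DP), post-selection, agonist-signalled, mature conventional and Foxp3-positive cells, and the names stand for these rules. Each gate was checked with genes it did not use. Among the 9 stages, all check genes of early DN (4), DN3 (5) and resting DP (5) were highest in their own gate in both libraries, as were 4 of 7 for Foxp3-positive and 3 of 4 for agonist-signalled cells. The 4 cell cycle genes were highest in the cycling Cd8-positive gate, with the Cd8-low gate next, so they check cycling and do not tell the cycling gates apart. The early DN gene Mef2c stood higher in the B gate, which is outside the 9 stages, than in early DN cells in cKO (73.4 against 40.0 UPM). For mature conventional cells 0 of 5 were: the genes summed to 1997 UPM in cKO and 1958 in WT cells of that gate, below the 2269 in cKO and 2002 in WT Foxp3-positive cells and above the 415 in cKO and 442 in WT resting DP cells. Foxp3-positive cells numbered 330 in cKO, with 2364535 UMIs and a median of 5308.5 per cell, and 330 in WT, with 2696735 UMIs and a median of 5889.5.

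Ddt, the D-dopachrome tautomerase gene (ENSMUSG00000001666), was at least 1.5-fold higher in cKO in the 3 late stages and in none of the 6 before them. In Foxp3-positive cells it stood at 325 UPM in cKO (302 to 349, from 768 UMIs) and 86.4 in WT (75.7 to 98.2, from 233 UMIs), a ratio of 3.76 (3.24 to 4.37). In agonist-signalled cells, with T cell receptor response genes and no Foxp3 UMI, it stood at 221 in cKO and 108 in WT. That is a ratio of 2.04 (1.70 to 2.44). In mature conventional cells it stood at 195 in cKO and 83.2 in WT, a ratio of 2.34 (1.54 to 3.62), from 70 cKO and 61 WT cells. In that gate the 4 cell cycle markers summed to 14.4 UPM in cKO and 93.3 in WT and the 4 B cell markers to 387 in cKO and 242 in WT, and their part in the result was not tested. The 7 check genes of the Foxp3-positive gate summed to 3435 UPM in cKO and 3703 in WT cells of that gate. They summed to 3548 in cKO and 3159 in WT agonist-signalled cells, where Tnfrsf4 and Tnfrsf18 are also gate genes. Mature conventional cells had 1404 in cKO and 1364 in WT, and resting DP cells 272 and 283. The part of cells with missed Foxp3 in the results of these 2 gates was not tested. In the 3 late stages the intervals of the cKO and WT levels of Ddt did not overlap. Before them the ratio lay between 0.913 (0.810 to 1.03) in resting DP cells and 1.12 (1.04 to 1.21) in cycling Cd8-positive cells, with 0.973 (0.870 to 1.09) in DN3 cells. Post-selection cells had few counts, with a log2 fold of cKO over WT of 0.12 (-0.62 to 0.88). That interval includes a 1.5-fold rise, so whether Ddt was already higher in post-selection cells is not settled. Over 9 alternatives the log2 fold there ranged from -0.01 to 0.45, short of 1.5-fold in each.

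The order of the stages for Ddt thus differed between the libraries. In WT the level ran from 63.4 in post-selection to 108 UPM in agonist-signalled cells, and no neighbouring stages in that order had intervals that parted. In cKO it was lowest in post-selection (69.5) and resting DP cells (76.0). It stood between 92.7 and 104 in the DN and cycling stages. A step followed to mature conventional and agonist-signalled cells, whose intervals overlapped, and a further step to Foxp3-positive cells, whose interval lay above all others.

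**Figure D1:**
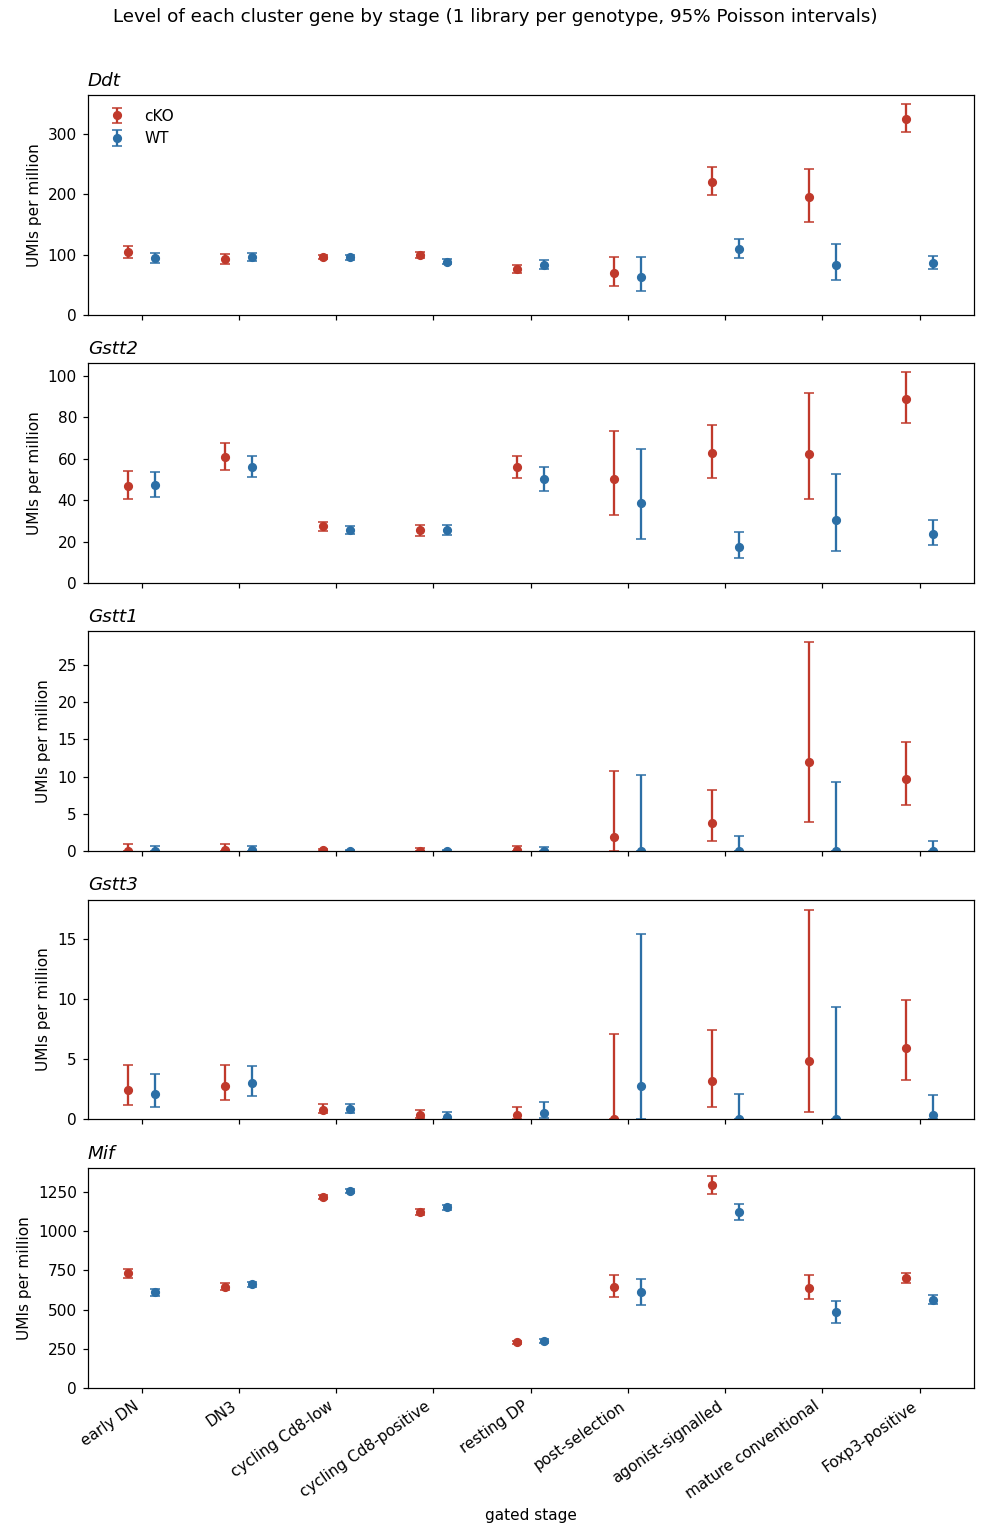
UPM (vertical axes, linear from 0) of each cluster gene in 9 gated stages, with cKO (red) left of WT (blue); points are the summed level in 1 library and bars the 95% Poisson interval. Ddt and Gstt2 part between the libraries in agonist-signalled and Foxp3-positive cells (Ddt at 325 in cKO and 86.4 in WT Foxp3-positive cells), while Mif stays within a ratio of 1.33 in all 9 stages.

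Gstt2, a theta-class glutathione transferase gene (ENSMUSG00000033318), differed in the same stages but from another starting pattern. In WT it was low in agonist-signalled cells (17.5 UPM), Foxp3-positive cells (23.7) and both cycling gates (25.4 Cd8-positive, 25.7 Cd8-low), and high in DN3 (56.2), resting DP (50.2) and early DN cells (47.3). In cKO Foxp3-positive cells it stood at 88.8 (77.2 to 102, from 210 UMIs), against 23.7 in WT (18.3 to 30.3, from 64 UMIs), a ratio of 3.74 (2.82 to 5.03). Agonist-signalled cells held 62.6 UPM in cKO and 17.5 in WT, a ratio of 3.58 (2.37 to 5.54). The cKO level there was close to that of DN3 cells, at 60.9 in cKO, with overlapping intervals. The ratio was 2.07 (1.01 to 4.49) in mature conventional cells, from 26 cKO and 12 WT UMIs, and lay between 0.993 in early DN and 1.30 (0.654 to 2.69) in post-selection cells. With cells thinned to 2000 UMIs before gating, the log2 fold in cycling Cd8-positive cells was -0.96, against 0.01 without thinning.

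Gstt1 (ENSMUSG00000001663) and Gstt3 (ENSMUSG00000001665), the other glutathione transferase genes of the set, were near the limit of detection. Gstt1 gave 23 UMIs in 14 of 330 cKO Foxp3-positive cells and 0 in 330 WT cells, at least 8.74-fold higher in cKO against a floor of 3 counts over the stage. It also gave 6 UMIs in 2 cKO agonist-signalled cells, with up to 4 in 1 cell, and 5 in 3 cKO mature conventional cells, with 0 in WT in both. In resting DP cells it gave 1 UMI in 2950 cKO cells and 0 in 1971 WT cells, cells with medians of 2268.5 UMIs in cKO and 2491 in WT that served as the background from free RNA. Of 42 cKO and 3 WT Gstt1 UMIs in all kept cells, 34 cKO and 0 WT UMIs thus lay in the 3 late stages.

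Gstt3 gave 14 UMIs in 12 cKO Foxp3-positive cells and 1 UMI in WT, a ratio of 16.0 with a wide interval (2.43 to 675). Agonist-signalled cells held 5 UMIs in cKO and 0 in WT, and mature conventional cells 2 in cKO and 0 in WT. Gstt3 was also found early, where the libraries did not part: DN3 cells held 16 UMIs in cKO and 26 in WT (ratio 0.916, 0.459 to 1.77), and early DN cells 10 in cKO and 11 in WT. Gstt4, which lies between Gstt1 and Gstt2, gave 1 UMI in cKO and 0 in WT Foxp3-positive cells, and 3 in cKO and 0 in WT agonist-signalled cells, too few for a direction. In GENCODE vM21 the gene model Gm20441 overlaps both Ddt and Gstt3 on the same strand. It had 0 UMIs in every gated stage of both libraries, and reads in the shared exons may have been dropped or split by the counting.

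Mif, the gene for macrophage migration inhibitory factor (ENSMUSG00000033307), lies next to Gstt2 and did not share the size of its difference. In Foxp3-positive cells it stood at 700 UPM in cKO (667 to 735) and 561 in WT (533 to 590), a ratio of 1.25 (1.16 to 1.34). The ratio was 1.15 (1.08 to 1.23) in agonist-signalled and 1.33 (1.10 to 1.61) in mature conventional cells. The direction in agonist-signalled cells turned with cells thinned to 2000 UMIs (log2 -0.11, against 0.20), and with stricter gates the log2 fold in mature conventional cells was 0.79, past 1.5-fold, against 0.41. Early DN cells, taken to precede the deletion, had a ratio of 1.20 (1.14 to 1.26), with a log2 fold of 0.26 that was 0.05 after thinning. In Foxp3-positive cells the log2 fold was 0.32, and 0.23 after thinning. Its level followed stage in both libraries, lowest in resting DP cells (289 in cKO and 299 in WT) and highest in agonist-signalled cells in cKO (1296) and cycling Cd8-low cells in WT (1261). Mif has processed pseudogenes elsewhere in the genome, and the sources used here do not say how reads that also match them were counted.

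A gene was counted as higher when the log2 of cKO over WT, after adding 5 UPM to each, reached a 1.5-fold difference, among genes with at least 20 UMIs in both libraries together. In Foxp3-positive cells 4 of the 5 members had that many UMIs and 3 were higher (Ddt, Gstt2 and Gstt1), where 2.64% of all 9388 genes were. The set was selected with that contrast known, so nothing is read from the count. In agonist-signalled cells Ddt and Gstt2 were higher of 3 members measured, where 2.99% of 8537 genes were, and by fold Ddt ranked 39 and Gstt2 ranked 16. In mature conventional cells the same 2 of 3 were higher, but there 11.0% of 4981 genes were. Among genes with at least 50 UMIs, which leaves out Gstt2 there, 6.22% were. The set was chosen with these libraries known, so neither count is independent of the choice. In the other 6 stages 0 of the 3 or 4 members measured were higher. The share of all genes that were higher was 0.596% in early DN, 0.500% in DN3, 0.250% in cycling Cd8-low, 0.164% in cycling Cd8-positive, 0.690% in resting DP and 7.61% in post-selection cells.

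The genes on either side had smaller differences in Foxp3-positive cells. The table's 10 genes on each side and Gstt4 make 21 neighbours, of which 13 were in the files and 4 had at least 20 UMIs in Foxp3-positive cells. Cabin1, which encodes a calcineurin inhibitor and lies before Ddt, stood at 74.0 UPM in cKO and 57.1 in WT Foxp3-positive cells, a ratio of 1.30 (1.04 to 1.62). Past Mif, the SWI/SNF subunit gene Smarcb1 had a ratio of 0.887 (0.721 to 1.09). Mmp11, a matrix metalloproteinase gene, had 0.862 (0.523 to 1.41), and Chchd10, which encodes a mitochondrial protein, had 1.06 (0.950 to 1.19). None of the 4 reached a 1.5-fold difference there, where 2.64% of all 9388 genes were that much higher and 3.32% lower. Most genes did not reach it, so this count does not set the 4 apart. Intervals that left out 1 were found for Ddt, Gstt3, Gstt1 and Gstt2 and also, at smaller ratios, for Cabin1 and Mif. In agonist-signalled cells Cabin1 had a ratio of 0.965 and Smarcb1 of 0.934, while Chchd10 had 1.33 (1.11 to 1.59), above the 1.15 of Mif. In post-selection cells Chchd10 had a log2 fold of 0.93 from 16 cKO and 5 WT UMIs, with a ratio interval that included 1 (0.784 to 7.82).

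**Figure D2:**
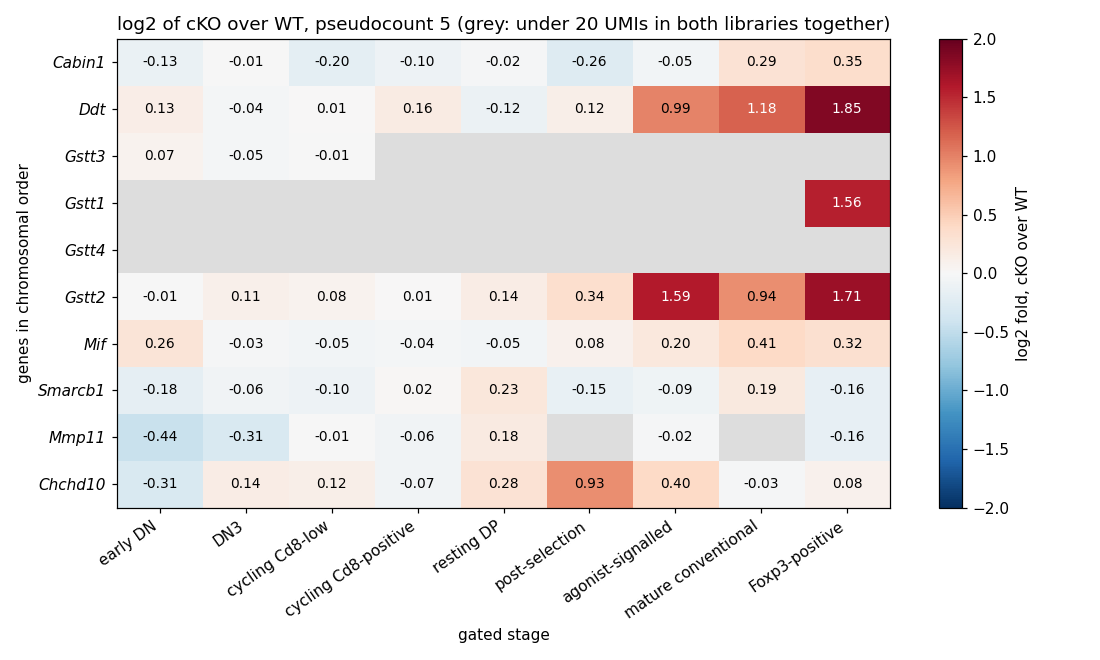
log2 fold of cKO over WT (colour and printed value, pseudocount 5 UPM) of genes in chromosomal order (rows, top to bottom) in 9 gated stages (columns); grey cells had under 20 UMIs in both libraries together. Ddt and Gstt2 are red in the 3 late stages, with Cabin1 above and Mif and Smarcb1 below much paler; Gstt1 had 0 UMIs in WT Foxp3-positive cells, so its 1.56 depends on the pseudocount.

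**Figure D3:**
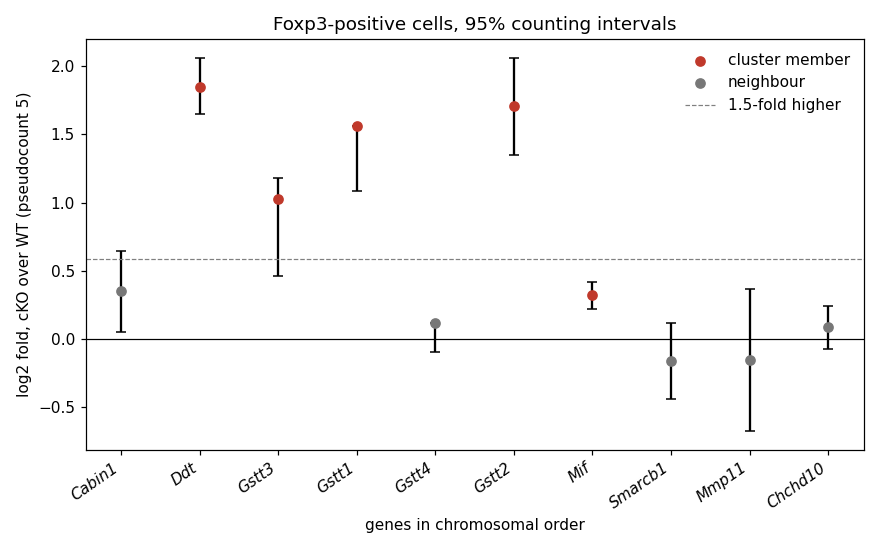
log2 fold of cKO over WT in Foxp3-positive cells (vertical axis, pseudocount 5 UPM) for genes in chromosomal order, with 95% counting intervals; red points are members and grey points neighbours. The 4 genes Ddt, Gstt3, Gstt1 and Gstt2 lie above 1.0, and Mif at 0.32 and Cabin1 at 0.35 lie below the 1.5-fold line; for Gstt1 and Gstt4 the interval ends at the point because WT had 0 UMIs.

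The Foxp3-positive and agonist-signalled gates were split by the egress genes Klf2 and S1pr1, which mark cells ready to leave the thymus. Summed levels of Ddt and Gstt2 were higher in cKO on both sides of the split. Foxp3-positive cells with at least 2 UMIs of these genes, 303 in cKO and 268 in WT, had a Ddt ratio of 4.09 (3.46 to 4.85) and a Gstt2 ratio of 3.59 (2.60 to 5.04). Those with fewer, 27 in cKO and 62 in WT, had a Ddt ratio of 2.10 (1.45 to 3.06) and a Gstt2 ratio of 4.71 (2.54 to 9.19). In the cells with fewer, Mif stood at 1350 in cKO and 720 in WT, a ratio of 1.88 (1.64 to 2.14). The summed levels of all 3 genes were thus higher in cKO in these few cells. Thinned to 2000 UMIs, a Ddt UMI was held by 24.0% in cKO (9.36 to 45.1) and 8.47% in WT (2.81 to 18.7), with overlapping intervals. Gstt2 was held by 24.0% in cKO (9.36 to 45.1) and 1.69% in WT (0.0429 to 9.09). Thinned to 3000 UMIs the intervals overlapped for both genes. A Mif UMI was held by 77.8% of these cells in cKO and 77.4% in WT without thinning. Thinned to 3000 UMIs the shares were 71.4% and 69.2%. Thinned to 2000 UMIs they were 76.0% in cKO (54.9 to 90.6) and 55.9% in WT (42.4 to 68.8), with overlapping intervals. Agonist-signalled cells were split the same way after the data had been seen. Their Ddt ratio was 2.69 (2.09 to 3.49) with egress genes and 1.48 (1.13 to 1.92) without. Thinned to 2000 UMIs, a Ddt UMI was held by 19.7% of cKO and 15.7% of WT cells with egress genes and by 22.1% of cKO and 12.5% of WT cells without (unthinned 55.0% of cKO and 42.1% of WT cells with, 48.8% of cKO and 43.3% of WT cells without), so no order between the sides is read from the ratios. Their Gstt2 ratio was 3.79 (2.24 to 6.69) with and 3.22 (1.63 to 6.83) without. All 6 Gstt1 and all 5 Gstt3 UMIs of cKO agonist-signalled cells were in cells with egress genes.

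Shares of cells were compared after each cell was thinned to 2000 UMIs, with shallower cells left out. A Ddt UMI was held by 36.4% of cKO (118 of 324; 31.2 to 41.9) and 9.97% of WT Foxp3-positive cells (32 of 321; 6.92 to 13.8). Without thinning the shares were 58.5% in cKO and 37.6% in WT. Gstt2 was held by 15.1% of cKO and 3.74% of WT Foxp3-positive cells (unthinned 31.2% and 13.9%), and Mif by 46.9% of cKO and 46.4% of WT cells (unthinned 69.7% and 70.6%). In agonist-signalled cells Ddt was held by 20.7% of cKO (15.4 to 26.7) and 14.4% of WT cells (9.90 to 19.9). In mature conventional cells it was held by 24.6% of cKO (15.1 to 36.5) and 13.3% of WT cells (5.94 to 24.6). The intervals overlapped in both stages. Thinned to 3000 UMIs the shares were 32.9% and 19.8%, and 48.5% and 17.5%, with intervals that parted. In resting DP cells Ddt was held by 14.1% of cKO and 14.8% of WT cells (unthinned 16.7% and 19.2%). Ddt is expressed in every stage measured, so no cell type served as its background.

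Ddt UMIs of cKO Foxp3-positive cells lay in part in few cells. After thinning, 25 of 324 cKO Foxp3-positive cells held 3 or more Ddt UMIs (7.72%, 5.06 to 11.2), up to 8 in 1 cell, and they carried 102 of the 215 Ddt UMIs. In WT 0 of 321 cells did, which by the floor of 3 counts allows a share of up to 0.935% (Clopper-Pearson upper limit 1.14%). At the other end 206 of the 324 cKO cells and 289 of the 321 WT cells held none. Agonist-signalled cells held 3 or more in 8 of 213 cKO cells and 0 of 209 WT cells. In resting DP cells 2 of 1992 cKO and 4 of 1568 WT cells did. A lower mean level also gives fewer such cells, and unevenness beyond counting error was not tested. In cKO agonist-signalled cells a Gstt2 UMI was found in 9 of 44 cells that held Ddt (20.5%, 9.80 to 35.3) and 8 of 169 that did not (4.73%, 2.07 to 9.11). In WT agonist-signalled cells they were 3 of 30 (10.0%, 2.11 to 26.5) and 2 of 179 (1.12%, 0.136 to 3.98). In cKO Foxp3-positive cells the shares were 24 of 118 (20.3%, 13.5 to 28.7) and 25 of 206 (12.1%, 8.01 to 17.4), with overlapping intervals. In WT Foxp3-positive cells they were 1 of 32 (3.1%, 0.0791 to 16.2) and 11 of 289 (3.81%, 1.92 to 6.71), the other direction. In cKO DN3 cells they were 11.3% with Ddt and 10.7% without, and in WT DN3 cells 13.6% and 10.9%. Mif was held by 56.8% of cKO Foxp3-positive cells with Ddt (47.3 to 65.9) and 41.3% without (34.5 to 48.3), with overlapping intervals. In WT Foxp3-positive cells Mif was held by 56.25% with Ddt (37.7 to 73.6) and 45.3% without (39.5 to 51.3). In cKO DN3 cells the Mif shares were 73.0% with Ddt (64.0 to 80.9) and 59.1% without (54.7 to 63.3), with intervals that parted. In WT DN3 cells Mif was held by 66.7% with Ddt and 65.9% without. In cKO resting DP cells Mif was held by 33.9% with Ddt and 31.3% without, and Gstt2 by 12.9% with Ddt and 10.7% without. In WT resting DP cells both were lower with Ddt: Mif at 31.5% with and 34.1% without, and Gstt2 at 9.91% and 10.3%. In agonist-signalled cells Mif was held by 77.3% with Ddt and 64.5% without in cKO, and by 66.7% and 62.0% in WT. A higher share with Ddt was thus found for Mif as well as Gstt2, but not in every stage and library. Its difference between the genotypes was not tested.

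**Figure D4:**
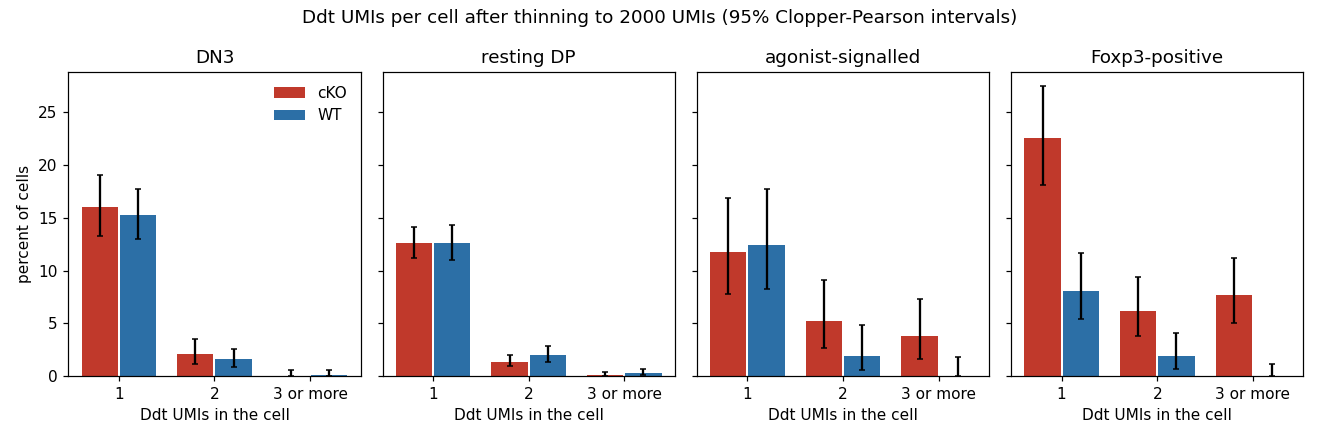
Percent of cells (vertical axis, from 0) with 1, 2 or at least 3 Ddt UMIs after thinning each cell to 2000 UMIs, in 4 stages, with cKO (red) left of WT (blue) and 95% Clopper-Pearson intervals. Cells with 3 or more make up 7.72% of cKO Foxp3-positive cells and 3.76% of cKO agonist-signalled cells, and 0 WT cells of either stage.

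Other glutathione and MIF pathway genes were counted in Foxp3-positive cells by the same 1.5-fold rule. Of 25 other glutathione transferase genes 11 had at least 20 UMIs: 2 were higher, 0 were lower, and their median log2 fold was -0.13, where the median of all genes was 0.00. The higher ones were Gsta4, an alpha-class enzyme for lipid peroxidation products, at 255 in cKO and 126 UPM in WT, and the mu-class gene Gstm1, with 19 UMIs in cKO and 4 in WT. Of 23 genes for glutathione supply and peroxidases 14 were measured, 1 was higher (the cystine transporter gene Slc7a11, log2 0.80) and 1 lower (the glutaredoxin gene Glrx, log2 -1.07), with a median of -0.01. Of 22 targets of the antioxidant factor NRF2 17 were measured, with 1 higher, again Slc7a11, 0 lower and a median of -0.02. Of 7 MIF and D-DT receptors and partners 4 were measured: Cd74, the receptor chain, was higher and the co-receptor gene Cd44 lower (log2 -0.59), with a median of 0.24. For comparison, 2.64% of all genes were higher and 3.32% lower in this stage. Of the 581 Cd74 UMIs in cKO 490 lay in 2 of the 330 cells, against 169 UMIs in WT, of which 10 lay in 1 cell. Cd74 was held by 64 of 330 cKO and 81 of 330 WT cells, so its higher sum in cKO did not go with more cells holding it. The B cell genes Ebf1 and Pax5 had 0 UMIs in the cKO cells of this stage, the 4 B cell markers summed to 397 UPM in cKO and 305 in WT, which came from Cd74 and Ighm but for 1.11 UPM of Ebf1 in WT, and 7 myeloid and dendritic markers summed to 8.46 in cKO and 1.11 in WT. The 4 cell cycle markers summed to 205 UPM in cKO and 385 in WT Foxp3-positive cells, and without cells in cycle, an alternative chosen after the data had been seen, the log2 fold of Ddt was 2.07. The part of free RNA and of other cell types in the Cd74 sums was not tested. Without cells holding at least 10 Cd74 UMIs the log2 fold of Ddt was 1.87 and that of Gstt2 1.72, against 1.85 and 1.71 with them.

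The genes most like Ddt in their log2 folds over the 9 stages, among 2157 genes with at least 50 UMIs in each stage, were Resf1 (Pearson r = 0.95), Runx1 (0.92), Ly6d (0.92), Trbc1 (0.91) and Dazap2 (0.89). Gstt2 was not among the 2157 genes, because it had under 50 UMIs in mature conventional cells, so it could not enter that list. Its own r with Ddt was 0.92. Those most like Gstt2 were Ddt (0.92), Resf1 (0.91), Mcrs1 (0.89), Crip1 (0.89) and Ifi27 (0.87). The 9 points share the same 2 libraries, so these values describe likeness and carry no p. Resf1, whose protein takes part in silencing retroelements, had 804 UPM in cKO and 146 in WT Foxp3-positive cells, a ratio of 5.49 (4.92 to 6.13). Unlike Ddt it was also higher in DN3 cells, with a ratio of 1.44 (1.30 to 1.58), where Ddt had 0.973. Runx1 reached a log2 fold of 0.21 in Foxp3-positive cells, so a high r did not require a large fold. Nor did it require a rise: Ifi27 had log2 folds of -0.15 in Foxp3-positive, -0.70 in resting DP and -1.04 in DN3 cells. Setdb1 gave 60 UMIs in cKO and 56 in WT Foxp3-positive cells, a ratio of 1.22 (0.835 to 1.79), and a 3′ tag outside deleted exons does not check the deletion.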

How the data were processed

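The authors deposited raw UMI counts for 1 cKO and 1 WT library prepared with the 10x Genomics 3′ v3.1 kit. The matrices come from Cell Ranger 6.1.1, per the file headers, and CASAVA 1.8 and Seurat 4.0.3 are further tools in the submitters' processing notes. Barcode and gene name columns were used as deposited and hold no other measurement. The files held 8461 cKO barcodes with 76668166 UMIs and 7852 WT barcodes with 89370968 UMIs, and 16 barcode sequences occurred in both.

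A cell needed 500 genes, 1000 UMIs and a mitochondrial share of no more than 10%. Scrublet scores were computed in scanpy 1.11.5 under Python 3.11.15, with an expected rate of 0.06. The WT threshold of 0.290 was used for both libraries, because the automatic cKO threshold of 0.638 had failed, and 129 cKO and 148 WT barcodes were removed.

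Gates on raw UMIs were applied in order: B (B cell genes, not reported here, summing to at least 3), Foxp3-positive (Foxp3 at least 1), cycling Cd8-positive and Cd8-low (Mki67 and Top2a at least 2, with Cd8a and Cd8b1 at least 2 or at most 1), agonist-signalled (Trac at least 2; Nr4a1, Nr4a3, Egr2, Nfkbid, Tnfrsf4, Tnfrsf9, Tnfrsf18 and Xcl1 at least 6), mature conventional (Trac at least 2; Rag1 and Rag2 at 0; Klf2, S1pr1, Ccr7 and Il7r at least 3), post-selection (Trac at least 2; Rag1 and Rag2 at most 1; Cd5, Cd69 and Itm2a at least 4), resting DP (Cd8a and Cd8b1 at least 2; Rag1 at least 1), early DN (Kit and Cpa3 at least 2; Cd8a and Cd8b1 at most 1; Trac at most 1) and DN3 (Ptcra at least 2; Il2ra at least 1; Cd8a and Cd8b1 at most 1).

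UMIs were summed per stage and library and scaled to 1000000 UMIs, with exact Poisson intervals. Ratios carry the exact binomial interval of the 2 sums, shares the Clopper-Pearson interval. The code was tested on simulated data. The members, lists and gates were chosen with earlier results of these data known. The named genes were the members, neighbours with at least 20 UMIs, list genes past 1.5-fold, and the 5 genes most like Ddt and Gstt2. Genes chosen after their values were seen are Gstt4, Gm20441, Setdb1, the B cell genes and Resf1 in DN3 cells.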

Additional observations from a re-analysis of the deposited data

Results flagged for a closer look

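Gstt3 differed between the libraries in cells that passed none of the gates, which no comparison above uses. These 1144 cKO and 998 WT cells gave 25 Gstt3 UMIs in cKO and 5 in WT, a ratio of 5.12 (1.93 to 17.1). The cKO UMIs came from 19 cells, with up to 5 in 1 cell, and the WT UMIs from 5 cells. These cells were split by the T cell receptor delta constant gene Trdc after the data had been seen. Ungated cells with at least 2 Trdc UMIs gave 11 Gstt3 UMIs in 10 cKO cells and 2 in 2 WT cells. Those with fewer gave 14 in 9 of 812 cKO cells and 3 in 3 of 593 WT cells. Counts were higher in cKO on both sides, but are too few to read each side alone. Ddt in the same ungated cells had a ratio of 0.974 (0.880 to 1.08) and Gstt2 of 1.16 (0.994 to 1.35). The ungated cells also differed in myeloid and dendritic markers, of which 5 of 7 stood higher in cKO. The 7 summed to 255 UPM in cKO and 68.7 in WT, led by Lyz2 at 176 in cKO and 24.2 in WT, and their part in the Gstt3 difference was not tested.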

How the results depend on the processing

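In Foxp3-positive cells Ddt and Gstt2 stayed at least 1.5-fold higher in cKO under all 12 alternatives tried, with log2 folds of 1.70 to 3.01 for Ddt and 1.32 to 2.28 for Gstt2, and Mif stayed between 0.22 and 0.44. Values outside the counting interval of the reported one were as follows. With cells thinned to 2000 UMIs before gating, which left 202 cKO and 185 WT Foxp3-positive cells, Ddt was 3.01 from 129 cKO and 13 WT UMIs, Gstt2 2.28 and Gstt1 1.58. With means of per-cell values Ddt was 2.12. With a pseudocount of 20 Gstt2 was 1.32, Gstt1 0.57 and Gstt3 0.35, and with a pseudocount of 1 Gstt1 was 3.42 and Gstt3 2.34, since WT had 0 or 1 UMI of these genes. Gstt1 was 1.57 with the looser and 1.60 with the stricter cell filter, and with stricter gates it was 1.77 and Gstt3 1.21. The Gstt1 interval ends at the reported value because WT had 0 UMIs, so even a slightly higher value lies outside it. Alternatives chosen after seeing the data gave 2.07 for Ddt without cells in cycle, and 2.14 for Ddt, 1.81 for Gstt1 and 0.44 for Mif without cells holding Ptcra, Dntt or Rag UMIs. Without cells holding at least 10 Cd74 UMIs Gstt1 was 1.57. The cause of these shifts was otherwise not tested.

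In agonist-signalled cells Ddt ranged from 0.90 to 1.17 and Gstt2 from 0.92 to 1.87 over 9 alternatives. In mature conventional cells Ddt ranged from 0.61 to 1.32 and Gstt2 from 0.54 to 1.18 over the 8 alternatives that left 50 cells per library. Gstt2 was past 1.5-fold in 7 of those 8. In post-selection cells Gstt2 passed 1.5-fold under 2 of 9 alternatives. No fold past 1.5 changed sign. Among genes with at least 50 UMIs the share higher in mature conventional cells was 6.22%, in agonist-signalled cells 1.90% and in post-selection cells 3.50%. Thinned to 3000 UMIs, 45.6% of cKO and 17.0% of WT Foxp3-positive cells held Ddt. No paired analysis was possible because each genotype has 1 library, which also leaves no replicate to leave out. Depth limits Gstt1, Gstt3 and Gstt4, whose counts are too low to place in most stages.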

Other observations

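The glutathione transferase gene Gsta4, which lies outside the cluster, had its difference in the same late stages as Gstt2. It stood at 188 UPM in cKO and 37.3 in WT agonist-signalled cells, a ratio of 5.04 (3.85 to 6.68). In mature conventional cells it stood at 91.3 in cKO and 10.1 in WT, from 38 cKO and 4 WT UMIs, and in Foxp3-positive cells the ratio was 2.02 (1.77 to 2.32). In resting DP cells 17 UMIs in cKO and 15 in WT gave a ratio of 0.826 (0.388 to 1.78).

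Cd74 UMIs lay mostly in few cells in some stages and not in others. In resting DP cells 630 of 649 UMIs in cKO lay in 4 of 2950 cells, against 30 UMIs in WT. In agonist-signalled cells 259 UMIs were counted in cKO and 1422 in WT, of which 1246 lay in 2 of the 211 WT cells. In cKO agonist-signalled cells 80 of 215 cells held it, and 102 of the 259 UMIs lay in 3 cells. In Foxp3-positive cells 64 of 330 cKO and 81 of 330 WT cells held it.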
